A study of Mus musculus with 60 samples.

Results

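The Cdx genes encode the caudal-type homeodomain transcription factors of the mouse, and each was followed here through 1 annotated transcript in the tailbud. The transcripts were chosen by their Ensembl identifiers, 3 of the 117135 transcripts in each table: ENSMUST00000025521.8 for Cdx1, ENSMUST00000031650.3 for Cdx2 and ENSMUST00000033689.2 for Cdx4. The symbols came with this choice. The gene name tables at hand list Cdx1, Cdx2 and Cdx4 by gene identifier and matched 0 of the transcript identifiers, so the pairing was not checked against an annotation, and the symbols below stand for these identifiers. All 3 transcripts passed the filter on low counts.

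RNA sequencing of total RNA was available for the tailbuds of 27 mouse embryos, out of 60 samples in the series. The tailbud is the growth zone at the tail end of the elongating axis, and somites, the segments of trunk and tail, form from the tissue it supplies. The 16 wild-type embryos (WT) comprised 4 at each of 12, 13, 14 and 16 somites. The 11 mutants (MUT) comprised 2 at each of 12, 13 and 14 somites and 5 at 16 somites. The design text gives the mutation as JARID2 K116R, a lysine-to-arginine substitution in an accessory subunit of Polycomb repressive complex 2, the enzyme that methylates histone H3 at lysine 27 and helps to silence developmental genes. The labels call the animals only wild type or mutant, and give no zygosity, strain, sex, litter or collection date. Each library is labelled as 1 embryo, so the spread between embryos includes animal and technical variation alike, and the library totals were 20908470 to 27090684 estimated counts. Mutant embryo 1 at 16 somites had a mean Pearson r of 0.836 to its group and wild-type embryo 4 at 14 somites one of 0.864, against 0.874 to 0.898 in the other 25 libraries. Tailbud, gut, neural and blood markers, the caudal partners and the downstream Hox genes were not analysed here, because no transcript could be paired with a symbol.

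Cdx proteins are known as activators of the central and posterior Hox genes, and as factors that keep the posterior growth zone supplied with progenitors while the axis elongates. Wnt, fibroblast growth factor and retinoic acid signals are known to act on their transcription. Cdx2 is also known for its roles in trophectoderm and in the gut epithelium, Cdx1 for vertebral patterning and intestine, and Cdx4 for its expression at the posterior end of the embryo and for its position on the X chromosome.

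The sequences just upstream of Cdx2 and Cdx4 are shown because the levels of these transcripts varied together between embryos, as described below. Whether the sequences have any part in that was not tested. Both are RefSeq sequences of GRCm38.p6, the 250 bases before the annotated gene start, written 5′ to 3′ in the direction of transcription. Cdx2 occupies chr5:147300900-147307249 on the minus strand and its window is chr5:147307250-147307499. Cdx4 occupies chrX:103321398-103330224 on the plus strand and its window is chrX:103321148-103321397. Capitals mark an octamer, ATGCAAAT, and the CCAAT box, the latter in its reverse form ATTGG in Cdx2.
Cdx2: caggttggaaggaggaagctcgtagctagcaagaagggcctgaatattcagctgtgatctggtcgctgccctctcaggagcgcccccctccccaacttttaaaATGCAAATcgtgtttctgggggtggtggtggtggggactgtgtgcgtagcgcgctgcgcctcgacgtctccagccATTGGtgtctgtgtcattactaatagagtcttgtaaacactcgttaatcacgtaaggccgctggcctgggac
Cdx4: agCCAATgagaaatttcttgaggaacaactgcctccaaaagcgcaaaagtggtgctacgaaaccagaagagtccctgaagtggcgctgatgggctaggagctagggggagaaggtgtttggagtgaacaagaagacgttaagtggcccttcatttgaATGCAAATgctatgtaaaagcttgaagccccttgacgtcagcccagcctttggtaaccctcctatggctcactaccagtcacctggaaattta

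The octamer, a binding motif known from POU-domain factors, stood once in each window and on the coding strand, 147 bases before the start in Cdx2 and 93 bases before it in Cdx4. On either strand it was present in 526 of 32851 RefSeq windows of that length (1.601%). It was searched for after both sequences had been read. A CCAAT box stood 72 bases before the start of Cdx2 and 248 bases before that of Cdx4, and 33.8% of all windows held one. Neither window held CTTTGA, the core of TCF/LEF sites (13.8% of windows), TTTATG, a caudal core (10.8%), or TATAAA, the TATA box (12.4%), on either strand. The GC content was 55.2% in the Cdx2 window and 48.4% in the Cdx4 window. These matches describe letters in the windows and no binding was measured. No window of Cdx1 is shown, so whether Cdx1 holds the octamer is not reported.

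Cdx4 was by far the most abundant of the family in the tailbud. Levels are compared between transcripts as TPM, a relative abundance that corrects for transcript length. The mean over the embryos was 225 ± 53.7 TPM (SD, n = 27) for Cdx4, 20.2 ± 6.47 TPM for Cdx1 and 19.7 ± 4.41 TPM for Cdx2. Cdx4 was the highest of the 3 in 27 of 27 embryos and made up 80.8% to 88.3% of the summed TPM of the family. Within an embryo it exceeded Cdx1 7.46-fold to 17.1-fold and Cdx2 8.14-fold to 16.2-fold. Among the 45394 transcripts tested, 703 had a higher mean TPM than Cdx4, 4359 a higher one than Cdx1 and 4424 a higher one than Cdx2. Cdx1 and Cdx2 differed in their overall means by less than the spread between embryos. Estimated counts per embryo ran from 359 to 1518 for Cdx1, from 721 to 1667 for Cdx2 and from 5012 to 14701 for Cdx4.

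**Figure D1:**
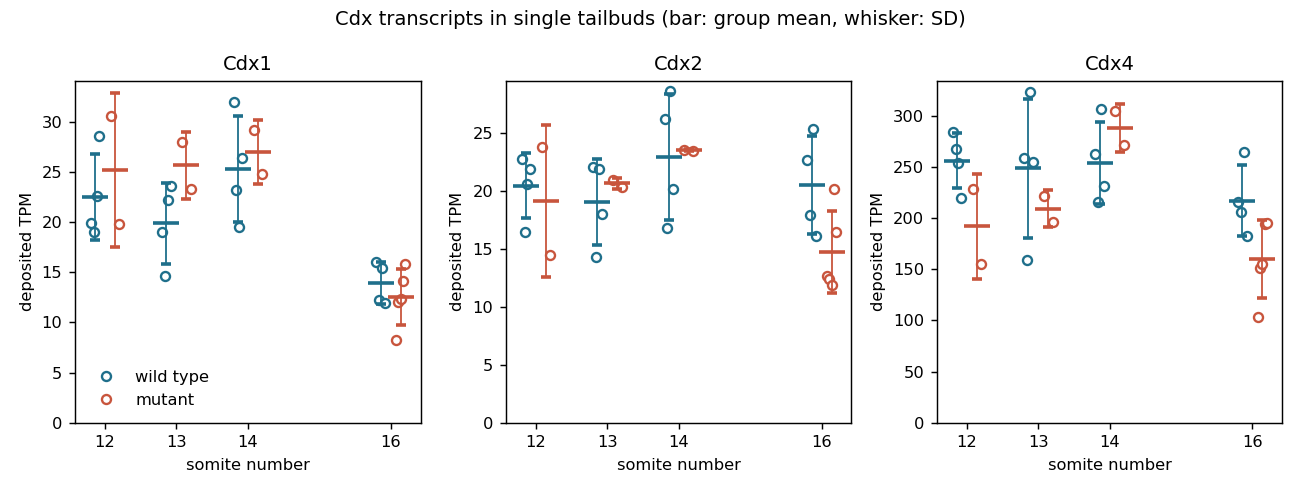
Deposited TPM (vertical axes, starting at 0) against somite number for Cdx1, Cdx2 and Cdx4, with 1 circle per embryo, a bar for the group mean and whiskers for the SD, wild type in blue and mutants in red. The 9 embryos of 16 somites have Cdx1 values of 8.27 to 16.0 TPM, and 17 of the 18 younger embryos lie above all of them.

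Cdx1 was lower at 16 somites than at the earlier stages. In wild type its TPM values in embryos 1 to 4 were 19.9, 19.0, 22.6 and 28.6 at 12 somites, 19.0, 14.6, 22.2 and 23.6 at 13, and 32.0, 23.2, 19.5 and 26.4 at 14. At 16 somites they were 16.0, 12.3, 15.5 and 12.0, so that 11 of the 12 younger wild-type embryos lay above all 4, and only embryo 2 at 13 somites lay among them. In mutants the values were 30.6 and 19.8 TPM at 12 somites, 28.0 and 23.3 at 13, and 29.2 and 24.7 at 14, against 8.27, 12.1, 12.4, 14.1 and 15.8 at 16. The 5 older and the 6 younger mutants did not overlap. For such separations, here and below, the share over all transcripts was not counted. By the contrast of stages given below, 5173 of 45394 transcripts had an unadjusted edgeR p under 0.05 in mutants, and 2627 in wild type. Over both genotypes the mean of Cdx1 was 23.7 ± 4.70 TPM (SD, n = 18) at 12 to 14 somites and 13.2 ± 2.48 TPM (SD, n = 9) at 16.

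A change with somite number was tested as a slope in log2 units per somite over all embryos, with genotype as a covariate, by edgeR's quasi-likelihood test. A transcript was called where the Benjamini-Hochberg adjusted p over all transcripts tested was under 0.05. Cdx1 fell by 0.20 per somite (SE 0.037, 95% interval -0.27 to -0.12) with an adjusted p of 0.0138, the 1 call among the 3 members, where 0.2% of 45394 transcripts were called. In bulk tissue, fewer cells that express a gene and less RNA per cell cannot be told apart. The slope of Cdx4 was -0.053 (95% interval -0.11 to 0.0055, adjusted p 0.817) and that of Cdx2 -0.024 (-0.090 to 0.041, adjusted p 0.960). Neither interval overlapped that of Cdx1, and the difference between members was not tested. Without mutant embryo 1 at 12 somites the adjusted p of Cdx1 was 0.050004, just above the threshold, and in limma on log2(TPM + 0.1) it was 0.0518.

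The decrease of Cdx1 was seen with the embryos of 16 somites included, and none was detected from 12 to 14 somites alone. Over those stages its edgeR slope was -0.022 (SE 0.072, adjusted p 0.978). It was 0.013 (SE 0.099) in wild type and -0.081 (SE 0.072) in mutants. At 12, 13, 14 and 16 somites its mean CPM (counts scaled to the library total) was 39.5, 33.5, 39.9 and 25.7 in wild type. In mutants it was 50.1, 47.4, 44.8 and 25.4. A step was not tested against an even slope. The mean over both genotypes was 23.4 ± 4.96 TPM (SD, n = 6) at 12 somites, 21.8 ± 4.56 at 13 and 25.8 ± 4.43 at 14, neighbours that differed by less than their spread. A contrast of 16 somites with the mean of the earlier stages was therefore added after these values were seen, so its p-values describe a pattern already noticed. By this contrast Cdx1 was 1.65-fold lower, a log2 change of -0.72 (SE 0.11, 95% interval -0.94 to -0.50, edgeR adjusted p 0.00231), where 0.0881% of transcripts were called. Cdx4 had a log2 difference of -0.20 (SE 0.090, adjusted p 0.344) and Cdx2 one of -0.11 (SE 0.10, adjusted p 0.707). Neither passed. In mutants Cdx4 had -0.33 (SE 0.13, unadjusted edgeR p 0.0183, adjusted p 0.413). Cdx2 had -0.36 there (SE 0.15, unadjusted edgeR p 0.0256, adjusted p 0.416). In that test 5173 of 45394 transcripts had an unadjusted p under 0.05. In wild type the values were -0.073 (SE 0.12) for Cdx4 and 0.13 (SE 0.14) for Cdx2.

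Library totals moved with stage and 5 of the 9 oldest embryos were mutants. Totals were 25937663 to 27090684 estimated counts at 14 somites and 20908470 to 24865712 at 16, while those at 12 somites were 22897290 to 24868923. Set against 12 somites alone, where library totals overlapped those at 16, the change of Cdx1 divided by the 4 somites between them was -0.20 (SE 0.033, edgeR adjusted p 0.00998). Without mutant embryo 1 at 16 somites and wild-type embryo 4 at 14 the log2 change at 16 somites was -0.70 (adjusted p 0.00331). What part depth or any unlabelled difference in collection had in the change was not tested.

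Taken apart, both genotypes gave a negative slope for Cdx1. The slope in the 16 wild-type embryos was -0.14 per somite (SE 0.050, unadjusted p 0.0131, edgeR adjusted p 1.000), where 0.0218% of 36763 transcripts were called. In the 11 mutants it was -0.27 (SE 0.045, unadjusted p 7.7e-05, edgeR adjusted p 0.121), where 0.0255% of 39151 were called. Neither passed alone in edgeR, and DESeq2 called the mutant slope (adjusted p 2.9e-05) but not that of wild type. DESeq2 called 152 of 38266 transcripts for the mutant slope and 42 of 36683 for that of wild type. By the added contrast of 16 somites with the earlier stages the log2 change was -0.54 in wild type (SE 0.15, edgeR adjusted p 0.860), where 0.0176% of transcripts were called, and -0.90 in mutants (SE 0.15, edgeR adjusted p 0.0201), where 0.0463% were. In mutants the call was lost without embryo 1 at 12 somites (adjusted p 0.0521) and without embryo 1 (0.0903), 2 (0.0732) or 3 (0.0790) at 16 somites. Without both libraries that correlated least with their groups it was also lost (log2 change -0.81, adjusted p 0.0661). In wild type DESeq2 called the contrast (adjusted p 0.0413), where it called 172 of 44878 transcripts against 8 in edgeR. The change was not shown to differ between genotypes: the difference, mutants minus wild type, was -0.36 (SE 0.21, edgeR adjusted p 1.000), with 0.00441% of transcripts called, and -0.22 (SE 0.20) without both libraries that correlated least with their groups.

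Cdx2 showed no stage effect that passed the test, and its values separated less by stage than those of Cdx1. In wild type the TPM values in embryos 1 to 4 were 22.7, 16.4, 20.6 and 21.9 at 12 somites, 22.1, 14.2, 21.9 and 18.0 at 13, 26.2, 16.8, 28.6 and 20.1 at 14, and 22.6, 17.9, 25.4 and 16.1 at 16. On this scale the oldest wild-type embryos lay inside the range of the younger ones, and on CPM embryo 3 at 16 somites (59.5 CPM) lay above it. In mutants the values were 23.8 and 14.5 TPM at 12 somites, 21.0 and 20.3 at 13, 23.5 and 23.4 at 14, and 12.7, 12.4, 11.9, 20.2 and 16.4 at 16. Mutant embryos 1 to 3 at 16 somites lay below every younger mutant, and embryos 4 and 5 within their range. The slope was 0.031 per somite in wild type (95% interval -0.051 to 0.11) and -0.095 in mutants (-0.19 to -0.0011, edgeR adjusted p 0.822). Their difference, fitted over all embryos, was -0.13 (SE 0.060, unadjusted p 0.0372, edgeR adjusted p 1). No transcript passed that test in edgeR (0% of 45394; 2080 had an unadjusted p under 0.05, and DESeq2 called 111 and limma voom 0). From 12 to 14 somites alone the sign of the difference turned (0.024, SE 0.14).

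Cdx4 had no stage effect that passed the test, and its ranges overlapped between stages in wild type. Its wild-type TPM values in embryos 1 to 4 were 284, 267, 253 and 219.9 at 12 somites, 258, 159, 323 and 254 at 13, 263, 216, 306 and 231 at 14, and 215, 206, 264 and 182 at 16. On TPM the lowest wild-type value belonged to embryo 2 at 13 somites, and on CPM to embryo 4 at 14 somites. The wild-type means at 14 and 16 somites were 416 ± 74.6 and 419.7 ± 60.1 CPM (SD, n = 4 each), which differed by less than their spread. In mutants the values were 228 and 155 TPM at 12 somites, 222 and 196 at 13, 304 and 271 at 14, and 103, 151, 155, 194 and 195 at 16. On TPM 5 of the 6 younger mutants lay above all 5 of 16 somites, and embryo 2 at 12 somites lay among these. On CPM the ranges overlapped more: embryo 5 at 16 somites (419 CPM) lay above both mutants of 13 somites (404 and 413 CPM). The lowest of all, 103 TPM, came from mutant embryo 1 at 16 somites, the library that correlated least with its group. The slope of Cdx4 was -0.041 per somite in wild type (95% interval -0.11 to 0.030) and -0.068 in mutants (-0.17 to 0.036).

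Cdx1 and Cdx2 changed places in the order of levels between the younger and the older embryos. Ratios of TPM within an embryo do not depend on how the library is scaled. Cdx1 exceeded Cdx2 in 15 of the 18 embryos of 12 to 14 somites and in 1 of the 9 embryos of 16 somites. The ratio of Cdx1 to Cdx2 was 1.15 ± 0.199 (SD, n = 18) in the younger and 0.787 ± 0.161 (SD, n = 9) in the older embryos. At 16 somites it was 0.610 to 0.745 in wild type and 0.652 to 1.04 in mutants. The ratio of Cdx4 to Cdx1 was 10.7 ± 2.71 in the younger and 14.0 ± 1.88 in the older embryos. Cdx4 stood to Cdx2 at 11.8 ± 1.83 and 10.8 ± 1.55, a difference below the spread between embryos. These ratios are given as descriptions.

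**Figure D2:**
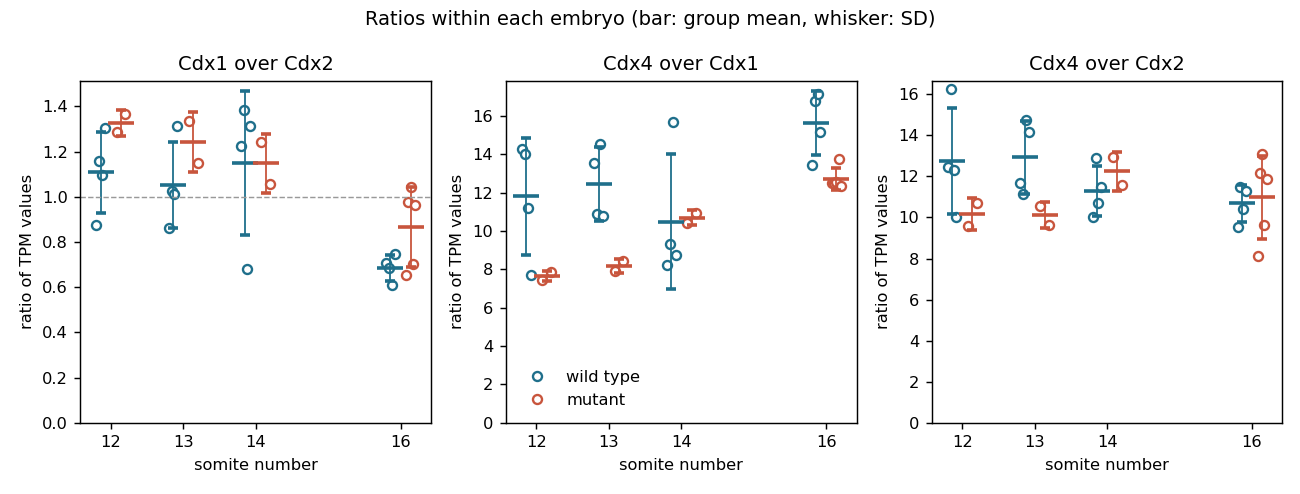
Ratios of deposited TPM values within each embryo (vertical axes, no unit) against somite number, with 1 circle per embryo, a bar for the group mean and whiskers for the SD, wild type in blue and mutants in red. In the panel of Cdx1 over Cdx2 the dashed line marks equal levels, and 8 of the 9 embryos of 16 somites lie below it.

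No member of the family passed the test for a genotype effect. With stage as a factor, the log2 fold change of mutant over wild type was 0.21 for Cdx1 (SE 0.10, 95% interval 0.0058 to 0.42, unadjusted p 0.0444, edgeR adjusted p 0.636), the 1 member of 3 with an unadjusted p under 0.05. It was -0.016 for Cdx2 (SE 0.10, interval -0.23 to 0.20, adjusted p 0.992) and -0.11 for Cdx4 (SE 0.091, interval -0.30 to 0.073, adjusted p 0.852). The test called 0.0154% of 45394 transcripts. DESeq2 called 189 of 44465 transcripts and limma voom 42 of 45394, with 0 of the 3 members among them. As ratios of mutant to wild type, the 95% intervals ran from 0.854 to 1.15 for Cdx2 and from 0.811 to 1.05 for Cdx4.

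The TPM scale as a whole sat lower in mutants, which bears on the level of every member. The median mutant difference of the 24398 transcripts that averaged 1 or more CPM was -0.14 on log2(TPM + 0.1), against -0.0086 on log2 CPM. TMM scaling centres CPM on the typical transcript, so that scale cannot show such a shift. Between 16 and 12 to 14 somites the TPM median fell by 0.15. Relative to the median mutant difference on TPM, the values were 0.22 for Cdx1, -0.012 for Cdx2 and -0.12 for Cdx4. They were close to the values on the scale of counts, and both sets are centred on the typical transcript. Unadjusted for this shift, an exact two-sided permutation of genotype within stages on log2(TPM + 0.1) gave -0.26 with p 0.0441 for Cdx4, -0.16 with p 0.224 for Cdx2 and 0.077 with p 0.524 for Cdx1.

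Tested stage by stage, none of the 4 stages gave a call among the members. At 12 somites the log2 fold changes were 0.34 for Cdx1, 0.079 for Cdx2 and -0.26 for Cdx4, each with an edgeR adjusted p of 1, and 0% of transcripts were called (1740 had an unadjusted p under 0.05, and DESeq2 called 301 and limma voom 11). At 13 somites they were 0.50 (unadjusted p 0.0281, adjusted p 1), 0.26 and -0.10, where 0.00661% were called. Both mutants of that stage lay above the wild-type mean for Cdx1. At 14 somites they were 0.17, 0.14 and 0.28, again with 0.00661% called. Without both libraries that correlated least with their groups, 1 of them wild-type embryo 4 of this stage, they were 0.087, -0.0018 and 0.16. With 1 embryo left out at a time, values at 12 somites ran from 0.15 to 0.52 for Cdx1, from -0.16 to 0.29 for Cdx2 and from -0.40 to -0.12 for Cdx4. With 2 mutants in each of these stages, 95% intervals were wide: at 13 somites that of Cdx1 ran from 0.059 to 0.94.

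At 16 somites, the stage with the most mutants, the differences of Cdx2 and Cdx4 were negative and did not pass the test. The log2 fold change was -0.33 for Cdx2 (SE 0.16, interval -0.67 to 0.0080, unadjusted p 0.0551) and -0.28 for Cdx4 (SE 0.14, interval -0.58 to 0.012, unadjusted p 0.0591), both with an edgeR adjusted p of 0.786. On the scale of CPM, that of the test, 3 of the 5 mutants lay below all 4 wild-type embryos in both transcripts, and 1 mutant for Cdx2 and 0 for Cdx4 lay above the wild-type mean. Cdx1 had a difference of -0.018 (interval -0.37 to 0.33). At this stage 0% of transcripts were called (2784 had an unadjusted p under 0.05, and DESeq2 called 253 and limma voom 1). Without mutant embryo 1 the value of Cdx4 was -0.18 and that of Cdx1 turned to 0.092. For a dependence of the genotype effect on stage the interaction was tested, and each member had an adjusted p of 1 (unadjusted p 0.278 for Cdx1, 0.138 for Cdx2 and 0.111 for Cdx4), with 0.00661% of transcripts called.

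**Figure D3:**
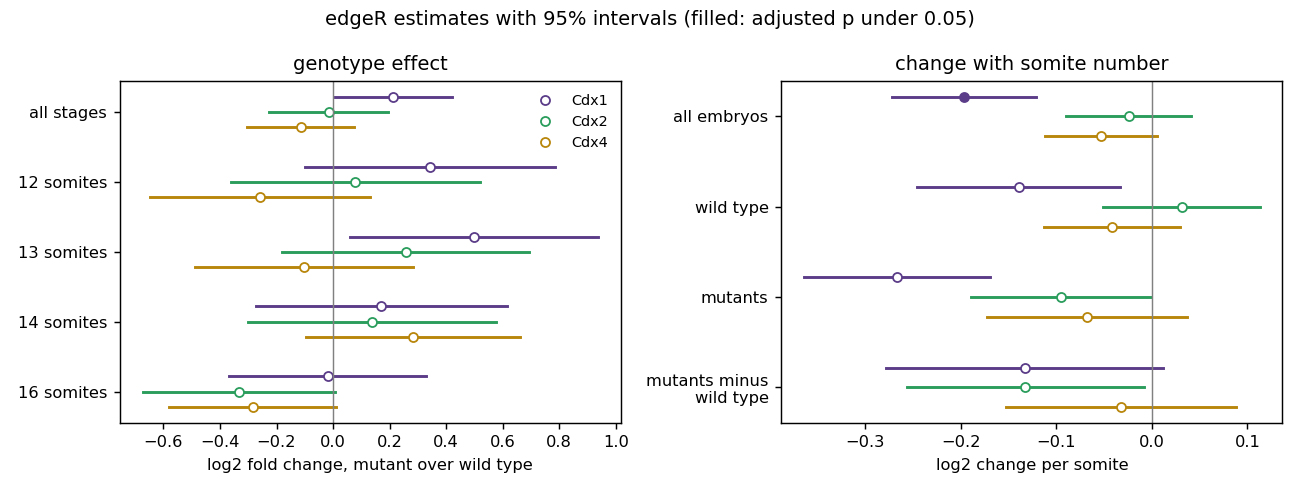
edgeR estimates (points) and their 95% intervals (lines) for Cdx1, Cdx2 and Cdx4, on the left the log2 fold change of mutant over wild type over all stages and at each stage, on the right the log2 change per somite and its difference between genotypes. The filled point marks an adjusted p under 0.05, which only the slope of Cdx1 over all embryos (-0.20) has among the effects drawn.

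Around the fit of stage and genotype, embryos differed by an ordinary amount in all members. That fit has no term for a genotype effect that changes with stage, so such changes count as spread. The biological coefficient of variation, the spread that remains after counting noise, was 0.186 for Cdx1, 0.190 for Cdx2 and 0.167 for Cdx4, and its median was 0.167 over 9951 transcripts with at least 10 CPM. Groups of 4 or 5 embryos were searched for a lone extreme value with Dixon's test, and 0 of 15 sets had one.

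Within groups, Cdx2 and Cdx4 varied together. After the group mean of log2 CPM had been subtracted, their deviations had a Pearson r of 0.638 (permutation p 0.00034, adjusted over the 3 pairs of members 0.00102) and a Spearman rho of 0.656 (permutation p 0.00032) over 27 embryos. Pearson's r was 0.647 in wild type (n = 16), 0.623 in mutants (n = 11), 0.541 without the 2 embryos farthest from the median of Cdx2, and 0.626 without both libraries that correlated least with their groups. For Cdx1 and Cdx2 r was 0.373 (permutation p 0.0548, adjusted 0.0608; rho 0.412, p 0.0337), and 0.285 without the 2 farthest embryos. For Cdx1 and Cdx4 r was 0.364 (permutation p 0.0608, adjusted 0.0608; rho 0.330, p 0.0924), and 0.490 without the 2 farthest embryos. Without both libraries that correlated least with their groups the r of Cdx1 and Cdx4 was 0.176, so it moved in either direction with the embryos left out. In groups of 2 embryos both deviations mirror each other, which these permutations do not take into account. Transcripts of 1 library also share its depth and scaling.

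**Figure D4:**
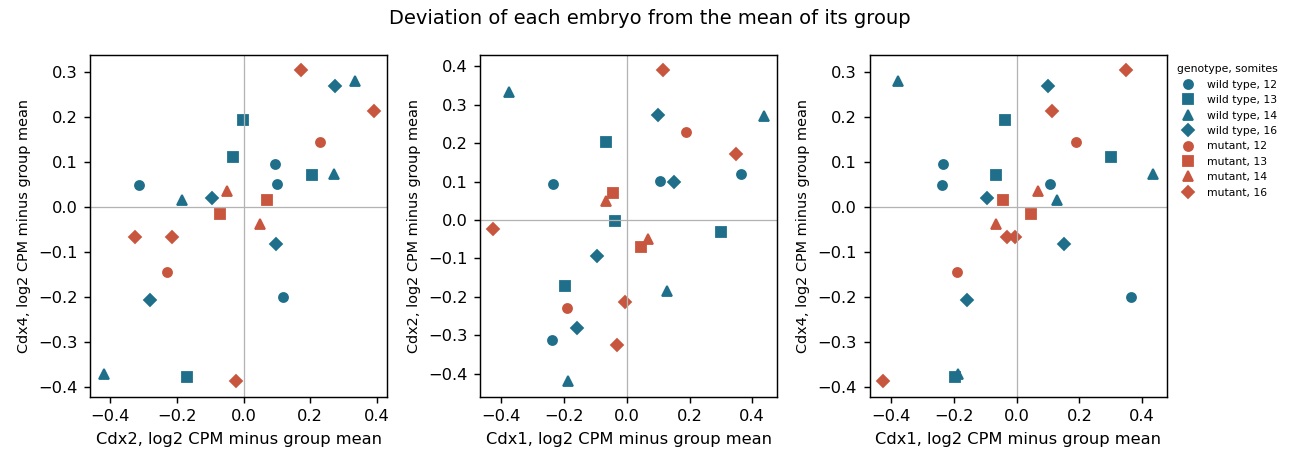
Deviation of each embryo from its group mean in log2 CPM for each pair of members, with 1 symbol per embryo, colour for genotype and shape for somite number. The points of Cdx2 and Cdx4 (left) follow a common direction (Pearson r 0.638, n = 27), and those of the pairs with Cdx1 do so less closely (0.373 and 0.364).

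Other transcripts followed each member more closely than the members followed each other. By the same deviations over 27 embryos and among 24397 other transcripts that averaged 1 or more CPM, the transcript most like Cdx1 was ENSMUST00000048653.9 (r 0.848), the one most like Cdx2 was ENSMUST00000010044.7 (r 0.833) and the one most like Cdx4 was ENSMUST00000029626.8 (r 0.913). Each is the highest of many values, and the tables at hand give none of the 3 a symbol. In this order Cdx4 was 84th for Cdx2, whereas Cdx2 was 658th for Cdx4, for which 11.0% of all transcripts had an r above 0.5. For Cdx2 that share was 2.23%, and for Cdx1 it was 4.33%. Cdx1 was 1852nd for Cdx2 and 5559th for Cdx4.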

How the data were processed

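The authors deposited 1 salmon table per library with a TPM value and an estimated count for each transcript, per the file headers. The submitters' processing notes name Salmon 1.5.2 and Trim Galore 0.5.0. The annotation release and the strandedness are not given in the sources used here. Deposited estimated counts were rounded and tested with edgeR 4.0.16 (filterByExpr on the 8 groups, TMM scaling, quasi-likelihood tests) in R 4.3.3, with Benjamini-Hochberg adjustment over all 45394 transcripts kept. The slopes fitted in wild type alone and in mutants alone were filtered on their own groups. They were adjusted over 36763 and 39151 transcripts. Salmon divides shared reads between similar transcripts by estimation. Deposited TPM values were used as they stand for levels and ratios. Standard errors are the log2 change over the square root of F. Log2 CPM values have a prior count of 2, and correlations used 100000 permutations. The members, gene lists and tests were chosen with earlier results of these data known. The rule for names took the 3 members and the transcript most like each. The gene lists and cell type markers planned were not run, since no identifier matched a symbol. The alternatives used DESeq2 1.42.0, limma 3.58.1, other filters, scalings, offsets and sets of embryos. The procedure was tested on simulated data.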

Additional observations from a re-analysis of the deposited data

How the results depend on the processing

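Same-numbered wild-type and mutant embryos of a stage did not deviate together (Pearson r across transcripts -0.12 to 0.044 over 10 pairs, none over 0.1), so the numbers were not taken as pairs. With the replicate block the slope of Cdx1 over all embryos was -0.20 (adjusted p 0.0544), and the block changed no other call of a member. Without the embryos of 16 somites that slope was -0.022, and the sign turned for the slopes of Cdx2 (0.0090) and Cdx4 (0.0011) over all embryos, Cdx1 in wild type (0.013), Cdx2 (0.028) and Cdx4 (0.18) in mutants, the differences of slope of Cdx2 (0.024) and Cdx4 (0.27), and the pooled genotype effect of Cdx2 (0.16). The limma fit on log2(TPM + 0.1), chosen after seeing the data, gave -0.22 for the slope of Cdx1 (adjusted p 0.0518), -0.13 for the genotype effect of Cdx2 at 12 somites and -0.018 for Cdx2 at 16 against 12 to 14 somites in wild type. DESeq2 called Cdx1 in mutants (slope -0.27) and, at 16 against 12 to 14 somites, in wild type (-0.56). The exact permutation on TPM gave -0.26 for Cdx4. Without both libraries that correlated least with their groups, Cdx1 in mutants at 16 against 12 to 14 somites was -0.81, and the genotype effect turned for Cdx2 at 14 somites (-0.0018) and Cdx1 at 16 (0.091). The latter also turned with limma voom (0.043) and effective lengths as an offset (0.0071). With 1 embryo left out at a time, the slope of Cdx1 ran from -0.21 to -0.18 and was called in 26 of 27 fits, and its contrast in mutants ran from -0.99 to -0.79 and was called in 23 of 27. Genotype effects ran from -0.055 to 0.032 for Cdx2 pooled, -0.16 to 0.29 at 12 somites and -0.0017 to 0.24 at 14, and from -0.11 to 0.092 for Cdx1 at 16. Where a group had 2 embryos, the lone one left was assumed to vary like the rest. The cause of these shifts was not tested. The other 1434 values kept their sign and their side of the threshold.

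Counts of called transcripts varied more than 1.5-fold with the settings. For the pooled genotype effect 7 became 0 without the embryos of 16 somites and 189 with DESeq2, and 1 to 23 with an embryo left out. Single stages gave 0, 3, 3 and 0 from 12 to 16 somites, and up to 301, 219, 188 and 253 with DESeq2, and the interaction 3 and 17. Slopes gave 91 over all embryos (2 without the embryos of 16 somites, 181 with DESeq2, 38 with the replicate block), 8 and 42 in wild type, 10 and 152 in mutants and 0 and 111 for their difference, edgeR first and DESeq2 second. At 16 against 12 to 14 somites they were 40 and 867 over all embryos, 8 and 172 in wild type, 21 and 548 in mutants and 2 and 187 for the difference.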

Other observations

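In the mutants, Cdx4 averaged 192 ± 51.6 TPM (SD, n = 2) at 12 somites, 288 ± 23.4 TPM (SD, n = 2) at 14 and 159.8 ± 37.8 TPM (SD, n = 5) at 16. Its slope from 12 to 14 somites alone was 0.18 per somite in mutants (SE 0.064, unadjusted p 0.0289, edgeR adjusted p 0.949), and the difference from the slope in wild type over these stages was 0.27 (SE 0.11, unadjusted p 0.0322, edgeR adjusted p 1). On TPM both mutants of 14 somites lay within the range of the 4 wild-type embryos of that stage, and on CPM 1 of them (519 CPM) lay above it.

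Cdx1 and Cdx4 deviated from their group means together in mutants (Pearson r 0.961, n = 11, permutation p 2.0e-05) and not detectably in wild type (r 0.053, n = 16, permutation p 0.845). By stage, over both genotypes, r was 0.856 at 16 somites (n = 9) and 0.076 at 12 to 14 somites (n = 18). It was not computed for each genotype within a stage, so these values do not separate genotype from stage. Over all embryos r was 0.176 without both libraries that correlated least with their groups. The pattern was noticed in the data, and the difference between genotypes was not tested. Of the 11 mutants, 6 belong to groups of 2, whose deviations mirror each other. Without the 2 mutants farthest from the median of Cdx1 r was 0.858 (n = 9, permutation p 0.0029).

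The ratio of Cdx4 to Cdx1 was 7.46 and 7.84 in the mutants of 12 somites and 7.91 and 8.41 in those of 13 somites. In wild-type embryos it ran from 7.70 to 14.3 at 12 somites and from 10.8 to 14.5 at 13. At 16 somites it was 12.3 to 13.7 in mutants and 13.5 to 17.1 in wild type. The ratio was singled out after its values were seen and was not tested.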
